A study of Mus musculus with 6 samples.

Results

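Hyaluronan and its cell surface receptor CD44 were followed through 9 genes in mouse Müllerian duct mesenchyme: the synthase genes Has1, Has2 and Has3, the hyaluronidase genes Hyal1 and Hyal2, the proteoglycan genes Vcan and Acan, the link protein gene Hapln1 and Cd44. The genes were chosen by symbol among 37991 gene identifiers, all 9 were found once, and 8 had enough counts to be tested, Acan being the exception. The set was chosen because Cd44 was seen to differ between the sexes in these libraries, so the values of Cd44 are given as a description without a test, and the other members were added for their function. The libraries came from YFP-positive cells sorted from embryos of a mixed C57BL/6J x 129/SvEv background at embryonic day 14.5, with the genotype Amhr2Cre/+, R26R YFP/+ in every library; the reporter marks cells in which the Amhr2 locus has driven Cre, now or earlier in their lineage. There were 3 female and 3 male libraries, each from RNA pooled from 2 to 7 embryos, and they differ by sex alone in the labels.

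Hyaluronan is a long, unbranched sugar polymer that synthases in the plasma membrane make from UDP-glucuronic acid and UDP-N-acetylglucosamine and push out of the cell. Outside, it binds versican and aggrecan through their link modules, link proteins lock these complexes, and the resulting gel holds water and keeps embryonic mesenchyme loose. Hyaluronidases cut the polymer, and CD44 binds it at the cell surface and ties it to the actin cytoskeleton. In male embryos anti-Müllerian hormone from the testis makes the duct regress, and the mesenchyme around it is the tissue that carries the hormone's receptor; the series title places osterix downstream of that hormone.

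Library depth ran from 22511872 to 24749859 counts in genes. Amhr2, whose locus drove the Cre of the reporter, stood at 530.3 ± 233.7 in female and 338.8 ± 158.4 CPM in male libraries (SD, n = 3 each) and so was present in both. Because the cells were sorted by that reporter, its presence does not set duct mesenchyme apart from other marked cells. Of the 6 duct mesenchyme markers 4 (Emx2, Osr1, Hoxa10 and Hoxa11) were lower in male without overlap, where 7.27% of all genes were. The median log2 fold change of the 6 was −1.16, and that of Wnt5a alone was positive. None of the 6 passed with edgeR. With an offset for GC content and length 4 (Amhr2, Osr1, Hoxa10 and Hoxa11) were lower past the threshold, where 2.92% of all genes were. Epcam, a marker of the duct epithelium, was lower in male, at 2.58 ± 0.477 against 13.7 ± 3.08 CPM (adjusted p by edgeR = 0.0381). That call was lost when any single library was left out. Epcam was the only 1 of the 7 duct epithelium markers, of which 6 were tested, to pass. Of those 6, 2 had a positive and 4 a negative log2 fold change, with a median of −0.11. The part of these markers in the values of the hyaluronan genes was not tested. Of all 15227 genes tested, 1.23% differed between the sexes past an adjusted p of 0.05 (edgeR), 0.841% higher and 0.387% lower in male. The CPM of the sexes did not overlap in 13.7% of genes. In bulk RNA, fewer cells that express a gene and less RNA per cell cannot be told apart.

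The stretches before the start sites of Cd44, Hapln1 and Vcan are shown because these 3 members had the largest ratios between the mean CPM of the sexes, and Hapln1 and Vcan are next to each other on their chromosome among protein-coding genes. They are the 250 bases before the start in the RefSeq promoter table of GRCm38.p6, which held 7 of the 9 members, and the build named for the counts is mm9. Capitals mark matches, on either strand, to GGGCGG (the GC box bound by SP family factors), CTTTGA (a TCF/LEF core), TAATT (a homeobox core), CAGAC (a SMAD-type element) or TATAAA (the core promoter element of that name). The stretches lie at chr2:102901666-102901915, minus strand, chr13:89540386-89540635, plus strand, and chr13:89742513-89742762, minus strand.
Cd44: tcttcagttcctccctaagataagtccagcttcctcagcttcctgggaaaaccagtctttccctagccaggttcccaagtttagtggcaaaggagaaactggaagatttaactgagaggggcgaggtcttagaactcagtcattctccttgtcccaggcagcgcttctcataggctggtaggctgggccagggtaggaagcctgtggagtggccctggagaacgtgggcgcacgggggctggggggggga
Hapln1: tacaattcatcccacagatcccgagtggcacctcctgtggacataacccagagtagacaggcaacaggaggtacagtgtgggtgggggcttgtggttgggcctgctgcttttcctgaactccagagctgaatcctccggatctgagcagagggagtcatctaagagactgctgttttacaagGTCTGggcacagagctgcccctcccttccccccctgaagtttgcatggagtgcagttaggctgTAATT
Vcan: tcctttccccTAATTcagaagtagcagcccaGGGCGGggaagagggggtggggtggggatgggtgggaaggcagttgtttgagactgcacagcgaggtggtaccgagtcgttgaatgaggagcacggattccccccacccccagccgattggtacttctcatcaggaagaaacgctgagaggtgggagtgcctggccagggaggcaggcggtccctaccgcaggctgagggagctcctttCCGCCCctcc
The Cd44 stretch held none of the 5 motifs. That of Hapln1 held TAATT once, beginning 5 bases before the start, and CAGAC once on the other strand, and that of Vcan held GGGCGG in 2 places and TAATT in 1. Among all 32851 stretches of this length in the table, 32.7% held GGGCGG, 13.8% CTTTGA, 25.0% TAATT, 42.2% CAGAC and 12.4% TATAAA, and the search says only which letters are in these windows.

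Per length, versican, Hyal2 and Has2 were far above the other members. Female libraries had, in falling order of mean CPM per kilobase, Vcan at 170.4, Hyal2 at 40.6, Has2 at 12.99, Hyal1 at 1.83, Hapln1 at 0.756, Has3 at 0.569, Cd44 at 0.339, Has1 at 0.313 and Acan at 0.0353. In male libraries the order by the same measure was Vcan at 68.6, Hyal2 at 59.8, Has2 at 23.6, Hapln1 at 2.93, Cd44 at 2.03, Hyal1 at 1.64, Has3 at 0.395, Has1 at 0.387 and Acan at 0.0264. The first 3 and the last 2 places were the same in both sexes, while Cd44 stood in place 7 in female and place 5 in male. The ranges of neighbours overlapped in female for Vcan and Hyal2, Hyal2 and Has2, Hapln1 and Has3, and Cd44 and Has1, and in male for those first 2 pairs and for Hapln1 and Cd44, Cd44 and Hyal1, and Has3 and Has1. The order was the same with mean transcript lengths and with DESeq2 size factors.

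**Figure D1:**
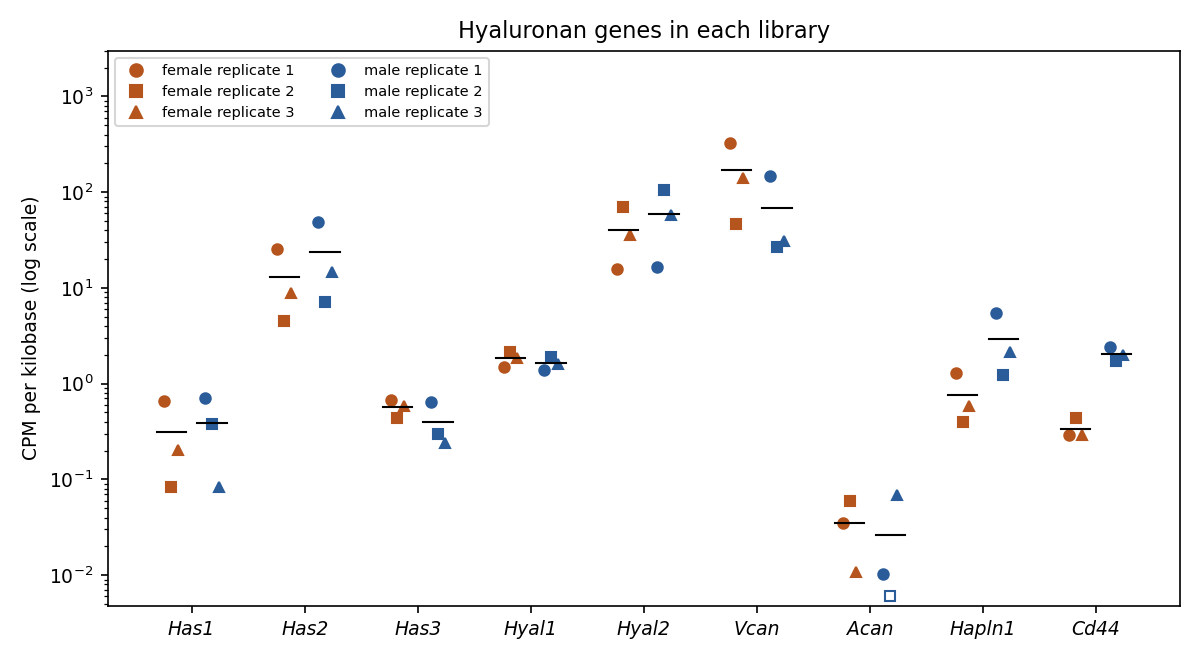
Level of each of the 9 genes in every library, as CPM per kilobase of the longest transcript on a log axis; each point is a library, shapes give the replicate number, black lines are means of 3, and the open square at the bottom is the male library in which Acan had no count. Cd44 is the member in which every male library, from 1.71 to 2.42, lies above every female library, from 0.288 to 0.438.

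Has2 supplied most of the synthase message. HAS2 is the main synthase of the embryo and is needed for heart formation. The female libraries, replicates 1 to 3 in this order as throughout, had 108.0, 19.3 and 37.8 CPM of Has2, and the male libraries had 207.5, 30.01 and 62.7 CPM. The sexes overlapped, and within each sex the highest library had over 5 times the level of the lowest. The log2 fold change, male over female, was 0.86 (SE 0.89, adjusted p by edgeR = 0.999969), and without male replicate 1 it was −0.25. Without both libraries of replicate 1 it was 0.69. By replicate number, male minus female in log2 CPM was 0.94, 0.64 and 0.73, although these numbers were not shown to mark pairs. Of the summed CPM per kilobase of the 3 synthases, Has2 made up 95.0%, 89.7% and 91.8% in the female and 97.3%, 91.3% and 97.8% in the male libraries. Has2os, an antisense RNA, shares 182 exonic bases with Has2 in the reference annotation. Reads there cannot be assigned to either gene, since the TruSeq v2 kit does not mark strand.

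The other synthase genes were low. Has1 had 2.31, 0.295 and 0.720 in the female and 2.49, 1.33 and 0.295 CPM in the male libraries, from 6 to 65 counts each. Its log2 fold change was 0.30 (SE 0.95, adjusted p by edgeR = 0.999969), and its sign turned without female replicate 2 (−0.14) or male replicate 1 (−0.47), so Has1 had no direction here. Has3, whose product makes shorter chains in culture, had 4.005, 2.61 and 3.48 in the female and 3.79, 1.78 and 1.43 CPM in the male libraries, and male over female was −0.53 on the log2 scale (SE 0.48, adjusted p by edgeR = 0.999969). The male libraries of Has3 reached into the female range through replicate 1. Chtf8, a gene on the opposite strand, shares 352 exonic bases with Has3, and reads there cannot be assigned to either.

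Hyal2 was the second member by mean level per length in both sexes and made up 91.4% to 98.2% of the summed CPM per kilobase of the 2 hyaluronidase genes. HYAL2 sits on the cell surface through a lipid anchor and cuts long chains into fragments, which HYAL1 then breaks down in lysosomes. Hyal2 had 47.3, 208.7 and 106.0 in the female and 49.0, 312.8 and 171.0 CPM in the male libraries. Replicate 1 was the lowest and replicate 2 the highest library in each sex, the reverse of Has2. The log2 fold change was 0.56 (SE 0.78, adjusted p by edgeR = 0.999969) and became −0.14 without male replicate 2. Without both libraries of replicate 2 it was 0.52. By replicate number, male minus female in log2 CPM was 0.05, 0.58 and 0.69. Hyal1 varied little, at 4.52, 6.49 and 5.56 in female and 4.17, 5.78 and 4.85 CPM in male libraries, and male over female was −0.16 on the log2 scale (SE 0.34, adjusted p by edgeR = 0.999969). Hyal1, whose longest transcript has 3014 bases, shares 1920 exonic bases with Naa80 and 159 with Hyal3 in the reference annotation. Its counts are uncertain there, and so are its level and rank per kilobase and the share of Hyal2 given above.

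Versican was the most abundant message of the set by mean level. Vcan encodes a large chondroitin sulfate proteoglycan of embryonic connective tissue that binds hyaluronan. It had 4018, 574.0 and 1762 in the female and 1840, 329.7 and 386.4 CPM in the male libraries. Male replicate 1 was above female replicates 2 and 3, so the sexes overlapped, although the mean was 2.49 times higher in female. The log2 fold change was −1.31 (SE 0.94, adjusted p by edgeR = 0.999969), negative in all 18 alternative fits, between −2.56 and −0.45. By replicate number, male minus female in log2 CPM was −1.13, −0.80 and −2.19. Per kilobase, Vcan was above Hyal2 in 3 libraries and below it in female replicate 2 and male replicates 2 and 3, at 46.2 against 70.3, 26.5 against 105.4 and 31.1 against 57.6 CPM per kilobase.

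Hapln1 had the next largest difference after Cd44, but it did not pass the test. HAPLN1 is the link protein that fixes versican or aggrecan to hyaluronan. Its level was 7.38, 2.26 and 3.32 in the female and 31.1, 6.97 and 12.2 CPM in the male libraries. Of the male libraries only replicate 2 fell within the female range, just under female replicate 1. The log2 fold change was 1.95 (SE 0.71, adjusted p by edgeR = 0.423). With an offset for transcript GC content and length in each library it was 2.10 (SE 0.25, adjusted p by edgeR = 0.00538), past the threshold, where 5.94% of all genes passed. By DESeq2 it had an adjusted p of 0.0886.

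Aggrecan message was close to absent. Acan, the main proteoglycan gene of cartilage, had 7, 9 and 2 counts in the female and 2, 0 and 12 counts in the male libraries, at most 0.506 CPM, and did not pass the filter on low counts; fitted without that filter, it had a log2 fold change of −0.37 (adjusted p by edgeR = 0.999921). The cartilage gene Matn1 had no count in any library, and Col2a1 stood at 3.65 ± 0.0247 in female and 2.66 ± 1.19 CPM in male libraries. The 7 chondrocyte markers, of which 4 were tested, summed to 21.1 to 26.3 in female and 41.5 to 70.2 CPM in male libraries. Most of the male sum was Sox9, also a Sertoli cell marker, at 45.2 ± 13.5 CPM, while the collagen gene Col11a2 was lower in male without overlap, at 10.3 ± 2.12 in female and 4.02 ± 1.41 CPM in male libraries. Their part in the level of Hapln1 was not tested.

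Cd44, the value by which the set was chosen, was low in female and higher in every male library. This gene had 44, 50 and 41 counts in female replicates 1 to 3 and 355, 194 and 263 counts in male replicates 1 to 3, or 1.62, 2.46 and 1.64 CPM against 13.6, 9.59 and 11.1 CPM. The lowest male library was several times the highest female library. The mean was 1.91 ± 0.479 CPM in female and 11.4 ± 2.01 CPM in male (SD, n = 3 each), a ratio of 5.99, and the fitted log2 fold change was 2.58 (SE 0.38). Over 18 alternative fits the log2 fold change of Cd44 lay between 2.33 and 2.90. Counts per gene do not tell the splice forms of Cd44 apart; Esrp1, a splicing regulator of epithelium that favours its longer forms, had 8 counts in the 3 female and 4 in the 3 male libraries together, and its paralogue Esrp2 had 105 and 49 (log2 fold change −1.04, SE 0.62, adjusted p by edgeR = 0.875).

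Leaving out Cd44, which chose the set, 0 of the 7 other tested members passed the threshold with edgeR, where 1.23% of all genes did, and 0 passed with DESeq2 or limma-voom. At an unadjusted p under 0.05 by edgeR there was 1 of the 7, Hapln1, against 9.18% of all genes. With the GC and length offset in edgeR there were 3 of the 7 at that level, against 17.1% of all genes. None of the 7 was without overlap between the sexes. Their median log2 fold change was 0.30, and that of all tested genes was −0.01.

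**Figure D2:**
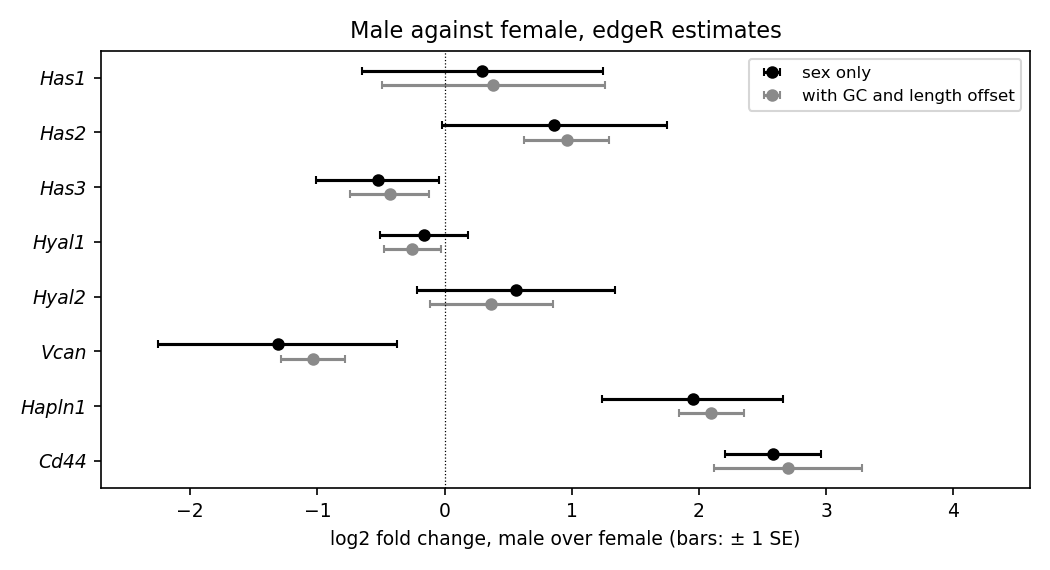
Fitted log2 fold change, male over female, of the 8 tested members (points) with 1 standard error to each side (bars), in the fit with sex alone (black) and with an offset for transcript GC content and length (grey). Cd44 lies at 2.58 and Hapln1 at 1.95 in the first fit. The bar of Cd44 is longer in the second fit, and those of all other tested members are shorter.

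Other cells that carry CD44 were looked for by their markers. The 7 leukocyte markers, of which 2 were tested, summed to 4.57 to 8.49 in female and 5.90 to 9.45 CPM in male libraries, and the pan-leukocyte gene Ptprc had 15 counts in the 3 female and 6 in the 3 male libraries. Most of the leukocyte sum was Cd68, at 3.74 ± 1.44 CPM (female) and 5.87 ± 1.76 CPM (male). The immune gene Cd74, outside that list, had 9 counts in the 3 female and 109 in the 3 male libraries. Several other marker sums were higher in every male library, that of the chondrocyte markers given above among them. The 5 Sertoli cell markers summed to 12.01 to 15.8 in female and 64.8 to 108.1 CPM in male libraries. The 5 smooth muscle markers summed to 16.2 to 23.3 CPM and 66.4 to 134.7 CPM. The 6 endothelium markers, of which 5 were tested, summed to 6.801 to 8.56 in female and 9.35 to 10.7 CPM in male libraries. None of those 5 was without overlap. The sums of the mesothelium markers overlapped between the sexes. All 5 Sertoli markers, Amh among them, and 4 of the 5 smooth muscle markers were higher in male without overlap, Myh11 being lower. Of all tested genes, 6.47% were higher and 7.27% lower in male without overlap. The part of these markers in the difference of Cd44 was not tested.

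In both sexes 4 members differed strongly between replicates 1 and 2, in opposite directions at low and at high GC content of their transcripts. Hapln1, Has2 and Vcan have transcripts of 39.8%, 40.6% and 43.7% GC, and in female replicate 1 they stood 3.26, 5.60 and 7.00 times as high as in female replicate 2. The same ratios between male replicates 1 and 2 were 4.46, 6.92 and 5.58. Hyal2, at 55.2% GC, went the other way, with ratios of 0.227 in female and 0.157 in male. Has1, at 48.1% GC and with few counts, had a ratio of 7.85 in female, above that of Vcan, but 1.86 in male. Has3, at 49.0% GC, had ratios of 1.54 and 2.13. Over tested genes under 40% GC, where Hapln1 lies, the median log2 difference between replicates 1 and 2 was 2.27 in female and 2.40 in male. Over those with 40% to 45% GC it was 1.51 and 1.72, with 45% to 50% 0.48 and 0.65, and with 55% to 60% −1.13 and −1.21. On this scale Hapln1 had 1.66 in female and 2.14 in male, below the medians of its range. Has2 had 2.48 and 2.79, Vcan 2.81 and 2.48 and Hyal2 −2.14 and −2.67, all beyond the medians of theirs. Cd44, at 44.5% GC, had ratios of 0.658 and 1.42, which are log2 differences of −0.60 and 0.49, below the medians of 1.51 and 1.72 over genes of that GC content. With the GC and length offset the SE fell from 0.89 to 0.33 for Has2 and from 0.94 to 0.25 for Vcan; neither passed, at log2 fold changes of 0.96 and −1.04 (adjusted p by edgeR = 0.187 and 0.0640).

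**Figure D3:**
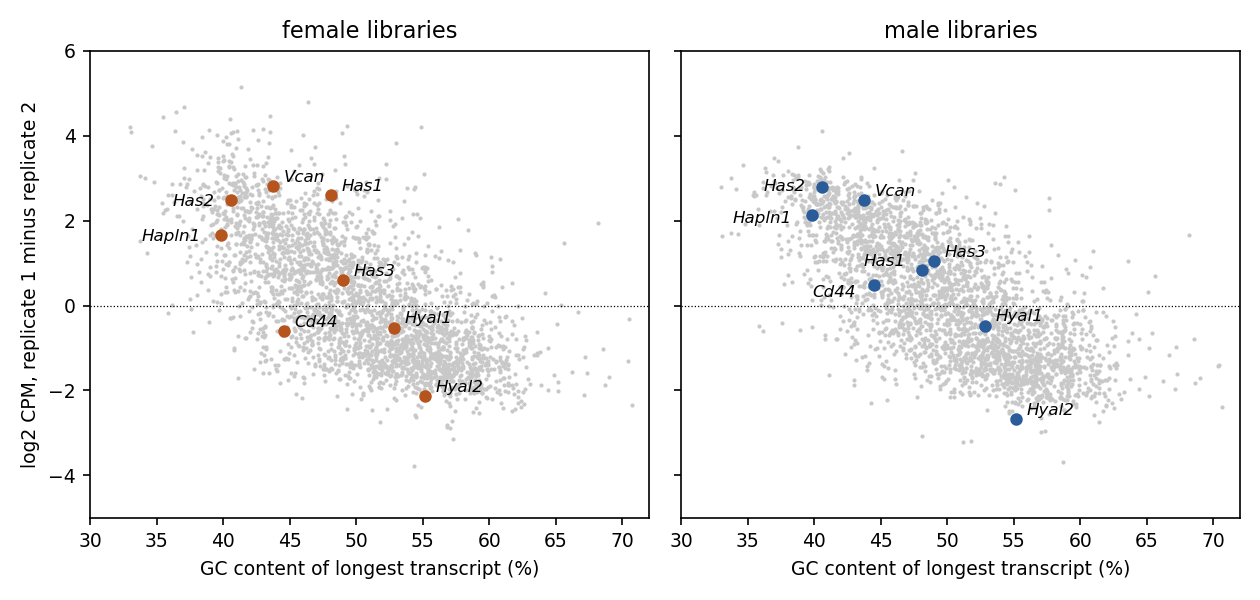
Difference in log2 CPM between replicates 1 and 2 of the female (left) and male (right) libraries against the GC content of the longest transcript, for 1 in 5 of the tested genes with a GC value (grey) and the 8 tested members (coloured). Has2, Hapln1 and Vcan lie high on the left of the cloud and Hyal2 low on its right, in both sexes.

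Ratios between members of the same library, chosen after their levels were seen, differed in how they went with sex. Vcan over Hapln1, per kilobase, was 250.2, 116.7 and 244.0 in the female libraries and 27.2, 21.8 and 14.6 in the male libraries. These neighbouring genes, both with transcripts of low GC content, thus stood in a ratio that did not overlap between the sexes, although the levels of each did. Hyal2 over Has2, per kilobase, was 0.625, 15.5 and 4.002 in the female and 0.337, 14.9 and 3.89 in the male libraries. The ranges of the sexes overlapped almost wholly in that ratio, and replicate 2 was the highest library of each sex. Neither ratio was tested.

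**Figure D4:**
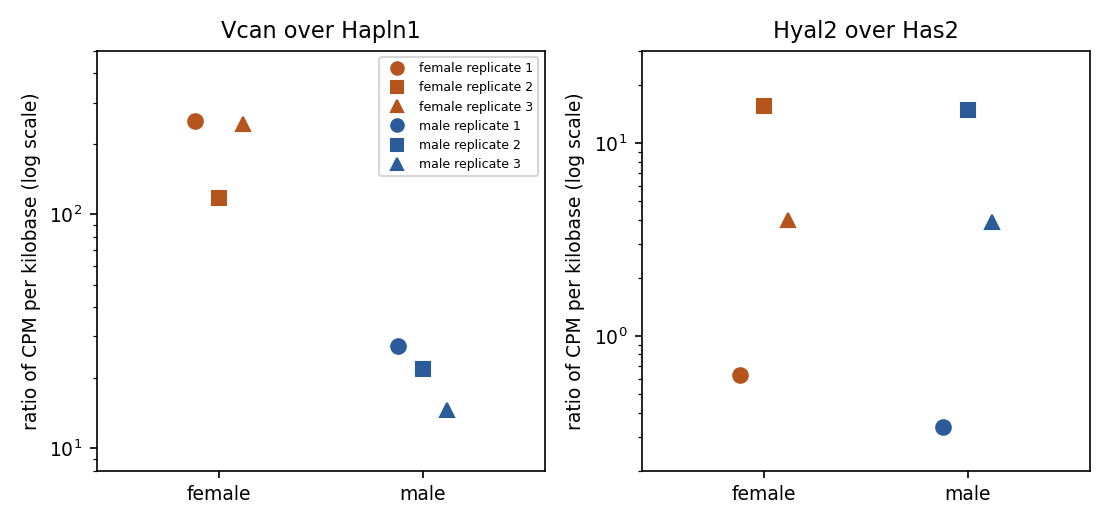
Ratio of CPM per kilobase of Vcan to Hapln1 (left) and of Hyal2 to Has2 (right) in each library, on log axes; shapes give the replicate number. The female libraries lie at 116.7 or above and the male libraries at 27.2 or below on the left, and the sexes overlap on the right.

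The wider hyaluronan pathway was covered by 65 genes in 6 lists, of which 50 were tested. Of these, 1 passed, higher in male, and none lower (edgeR), against 1.23% of all genes, and 10 were higher and 4 lower in male without overlap, against 6.47% and 7.27% of all genes. With the GC and length offset 7 were higher and 1 lower past the threshold, against 3.02% and 2.92%. Their median log2 fold change was 0.01.

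Ptx3 was the gene that rose. PTX3, a pentraxin, helps to cross-link hyaluronan in the matrix around the ovulating egg, together with the product of Tnfaip6 and the heavy chains of inter-alpha-trypsin inhibitor. Ptx3 had 0.551, 1.03 and 0.920 in the female and 10.8, 7.22 and 10.8 CPM in the male libraries, and male over female was 3.52 on the log2 scale (SE 0.44, adjusted p by edgeR = 0.0214). All male libraries were above all female ones, and the call was lost when any of the 3 female libraries or male replicate 2 or 3 was left out. Tnfaip6, which moves those heavy chains onto hyaluronan, had 3.93, 6.49 and 6.44 in female and 2.83, 2.37 and 1.90 CPM in male libraries, and male over female was −1.25 on the log2 scale (SE 0.39, adjusted p by edgeR = 0.279). Itih5, of the heavy chain family, had 35.6, 15.7 and 35.9 in female and 10.6, 2.92 and 4.55 CPM in male libraries, and male over female was −2.27 on the log2 scale (SE 0.61, adjusted p by edgeR = 0.193; 0.00429 with the GC and length offset). Neither Tnfaip6 nor Itih5 overlapped between the sexes, and neither passed. In the binding protein list as a whole, 1 of 6 tested genes rose and none fell by edgeR, where 0.841% of all genes rose and 0.387% fell, and the median log2 fold change was −0.20. DESeq2 also called Itih5 lower (adjusted p = 0.00648). Habp4 and Hapln3, the list's highest genes per kilobase by the mean of all 6 libraries, had 0.37 (SE 0.34) and 0.82 (SE 0.53).

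No gene of precursor synthesis, turnover or the other receptors passed. Of the 7 precursor genes, Ugdh, which makes UDP-glucuronic acid, was higher in male without overlap, at 75.9, 44.8 and 64.2 in female and 263.3, 107.0 and 173.2 CPM in male libraries (log2 fold change 1.56, SE 0.44, adjusted p by edgeR = 0.220; 0.0287 with the GC and length offset). Ugp2, the highest of that list per kilobase by the mean of all 6 libraries but below Ugdh in male, had −0.25 (SE 0.60), and the list's median was −0.02. Among 6 tested turnover genes the median was 0.34; Hexa and Gusb, lysosomal enzymes and the most abundant, had 0.47 (SE 0.67) and 0.21 (SE 0.45), and Cemip, which helps to degrade hyaluronan outside lysosomes, went without overlap from 6.39 ± 2.26 in female to 12.97 ± 3.60 CPM in male libraries (log2 fold change 1.02, SE 0.41, adjusted p by edgeR = 0.495). The other receptor genes had a median of −0.34 over 5 tested. Hmmr, which is also a gene of dividing cells, and Layn led by level with −0.64 (SE 0.88) and −0.18 (SE 0.31), and the lymphatic receptor Lyve1 had 19 counts in the 3 female and 17 in the 3 male libraries.

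Partners of CD44 did not pass either. Of 12 tested genes the median log2 fold change was 0.18. Mmp14 and Rdx, a membrane protease that can cut CD44 and a linker of membrane proteins to actin, were the highest per kilobase by the mean of all 6 libraries, although Msn was above Rdx in male, and had 0.33 (SE 0.35) and −0.09 (SE 0.73). Moesin, a linker of the same family encoded by Msn, was higher in male without overlap, at 106.3, 93.2 and 104.7 CPM against 201.3, 146.1 and 163.0 CPM (log2 fold change 0.75, SE 0.30, adjusted p by edgeR = 0.504; 0.0324 with the GC and length offset). Cd74, which forms a receptor complex with CD44 in immune cells, was higher without overlap from 9 female and 109 male counts in all (log2 fold change 3.67, SE 0.67, adjusted p by edgeR = 0.0635, and 0.0162 with the GC and length offset). By DESeq2 the adjusted p of Cd74 was 0.000394.

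The list of versican and aggrecan proteases and partners held 7 of the 14 genes without overlap, 5 higher and 2 lower in male among 14 tested, where 6.47% of all genes were higher and 7.27% lower without overlap, with none past the threshold and a median log2 fold change of 0.24. Adamts5, a protease that cleaves versican and aggrecan, had 4.52, 1.33 and 2.88 in female and 106.3, 26.9 and 41.0 CPM in male libraries. Its log2 fold change was 4.31 (SE 0.75, adjusted p by edgeR = 0.0564; 0.000479 with the GC and length offset; 1.73e-08 by DESeq2, by which 2.92% of all genes were higher and 2.15% lower in male, 5.06% in all). The related protease genes Adamts9 and Adamts1 had 1.87 (SE 0.54) and 1.29 (SE 0.46), and Tnc, the gene of the matrix protein tenascin-C, had 1.47 (SE 0.35). Chsy1, of chondroitin sulfate synthesis, was also without overlap, at 0.53 (SE 0.32). The 2 lower genes, Xylt1 and Chst11, encode enzymes of chondroitin sulfate assembly and had −1.59 (SE 0.42) and −0.51 (SE 0.28). The fibulin genes Fbln1 and Fbln2, whose products bind versican, were the most abundant per kilobase, at −0.38 (SE 0.66) and 1.27 (SE 0.53).

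**Figure D5:**
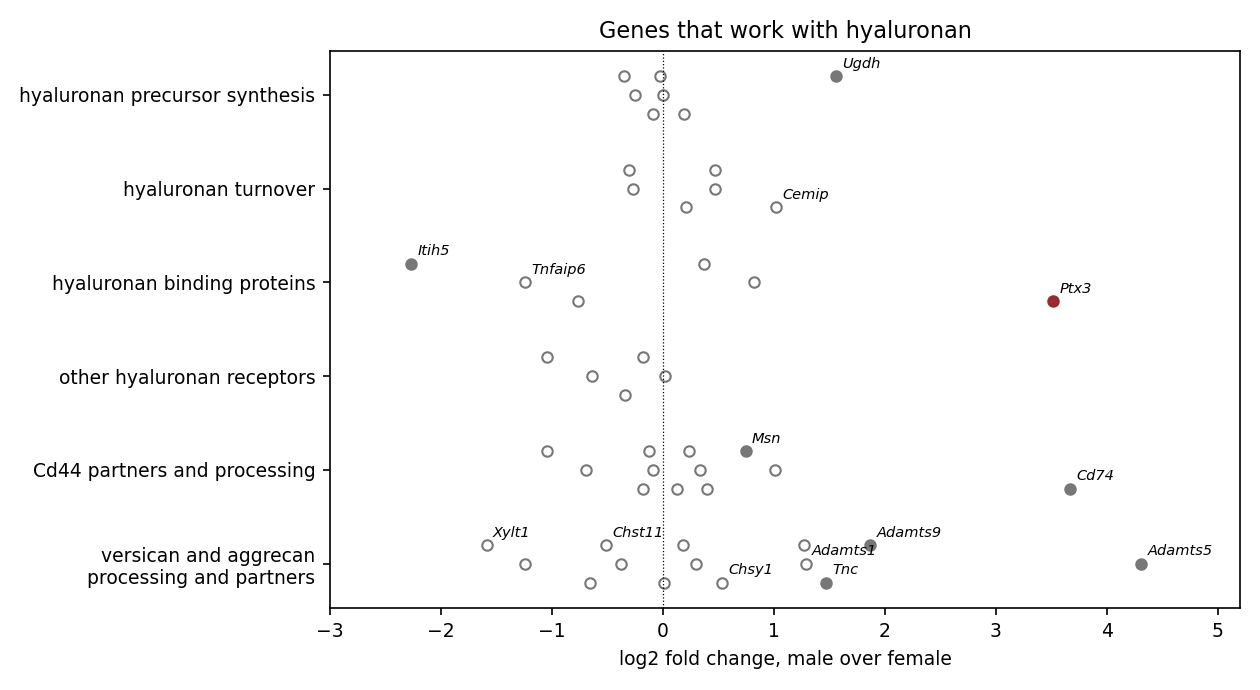
Fitted log2 fold change, male over female, of the 50 tested genes of the 6 related lists; the red point passed in the fit with sex alone, filled grey points passed only with the GC and length offset, open points in neither, and named genes are those without overlap between the sexes. Ptx3, at 3.52, is the red point, and Adamts5, at 4.31, lies farthest to the right.

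The profiles nearest to Cd44 over the 6 libraries belonged to Wnt10b, St3gal5, Bmper, Abcc2 and Hey1. Their root mean square distances in centred log2 CPM were 0.190, 0.226, 0.233, 0.240 and 0.267, against a median of 1.41 over all tested genes. The choice fixes that their fold changes lie near that of Cd44. Wnt10b was low in level, at 0.216 ± 0.116 in female and 1.55 ± 0.490 CPM in male libraries. Nearest to Has2 were Slc10a1, Rrm2b and Alcam, at distances of 0.154, 0.170 and 0.180. Nearest to Vcan were Prlr, the protease gene Adamts20 and Tfrc, at 0.173, 0.177 and 0.189.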

How the data were processed

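Counts per Ensembl gene were deposited by the authors for 3 female and 3 male libraries, which the labels call biological replicates. The submitters' processing notes list the tools TopHat, HTSeq and DESeq and the genome build mm9 but not what each did; for the annotation release and any strand setting, none is named in those sources. The 5 summary lines of each file were left out; counts outside annotated genes were 3.53% to 18.2% and counts on more than 1 gene 6.51% to 10.0% of uniquely placed counts.

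Genes passing filterByExpr (15227 of 37991) were scaled by TMM and fitted with edgeR 4.0.16 in R 4.3.3 (robust quasi-likelihood test, sex as the only term, two-sided, Benjamini-Hochberg over all tested genes, threshold 0.05). A standard error is the size of the log2 fold change divided by the root of its F statistic. Values in text are CPM on the TMM scale, mean ± SD of 3 libraries per sex. CPM per kilobase uses the longest transcript of each gene in GENCODE M21, which is on GRCm38 and was used for names, lengths, GC content and exon overlaps. Alternatives were other scalings and filters, DESeq2 1.42.0, limma-voom (limma 3.58.1), an offset from splines (5 degrees of freedom each) of transcript GC content and length per library, a replicate block and leaving out libraries. The 96.4% of tested genes with a GC value entered the offset. The code was tested on simulated data.

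The 9 members and the lists of related genes were chosen with earlier results of these data known. Named were all members, each list's genes past the threshold and its 2 highest by CPM per kilobase, and the genes with the nearest profiles to Cd44 (5), Has2 and Vcan (3 each) by root mean square distance of centred log2 CPM (prior count 2); other genes were chosen after their values were seen, mostly because the sexes did not overlap.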

Additional observations from a re-analysis of the deposited data

Results flagged for a closer look

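Between 3.53% and 18.2% of the uniquely placed counts lay outside annotated genes and entered no comparison. By library this share was 17.5% (female replicate 1), 3.53% (female replicate 2), 8.65% (female replicate 3), 18.2% (male replicate 1), 5.45% (male replicate 2) and 5.50% (male replicate 3). Any share above 0 would have been listed, since no library served as a control. The listing therefore does not say whether these shares are unusual.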

How the results depend on the processing

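The count of genes past the threshold was 187 with edgeR (1398 at an unadjusted p under 0.05), 771 with DESeq2 and 905 with the GC and length offset, and from 0 to 354 when libraries were left out. It was 0 without female replicate 3 or male replicate 3 (884 and 938 at an unadjusted p under 0.05) and without both libraries of replicate 2 or of replicate 3 (1103 and 455); leaving out both libraries of a number was chosen after seeing the data. Of the 7 tested members other than Cd44, which chose the set, 0 passed with edgeR. With the offset 1 passed, Hapln1, where 5.94% of all genes did, and none of the 7 passed when libraries were left out. For precursor synthesis the count went from 0 to 1 with DESeq2 and with the offset. For binding proteins it went from 1 to 2 with each of these, and was 0 to 2 when libraries were left out. For CD44 partners it went from 0 to 1 with DESeq2 or no filter and to 2 with the offset, and for the versican and aggrecan list to 4 with DESeq2, 1 with limma-voom or no filter and 3 with the offset; both were 0 to 1 when libraries were left out.

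With libraries left out, the log2 fold change of Cd44 ranged from 2.33 (both libraries of replicate 1) to 2.90 (both of replicate 2), that of Has1 from −0.47 to 1.42, that of Has2 from −0.25 to 1.81 and that of Hyal2 from −0.14 to 1.22. Has1 was negative without female replicate 2 (−0.14), without male replicate 1 (−0.47) and without both libraries of replicate 2 (−0.15), Has2 without male replicate 1 (−0.25) and Hyal2 without male replicate 2 (−0.14). The cause was not tested. The other tested members kept their sign in all 18 alternatives.

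Same-numbered female and male libraries were not shown to be pairs: their deviations from the group means correlated at 0.927, 0.852 and −0.0690 for numbers 1, 2 and 3, and female replicate 3 correlated best with male replicate 1. With the replicate number as a block, 4164 genes (27.3%) passed, and 4418 (29.0%) with the GC and length offset as well. With the replicate block, 1 precursor gene, 2 turnover genes, 4 binding proteins and 2 other receptors passed. So did 5 CD44 partners and 10 genes of the versican and aggrecan list. With the offset and block these counts were 1, 1, 5, 2, 5 and 10. Of the members other than Cd44, Has2, Hyal2, Vcan and Hapln1 passed with the block, and Has2, Vcan and Hapln1 with the offset and block. Depth limits Acan, with 0 to 12 counts in a library, and Has1, with 6 to 65.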
